A study of Mus musculus with 4 samples.

Results

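The 10 genes described here are known markers of blood vessel endothelium: Tek, Robo4, Kdr, Pecam1, Cdh5, Flt1, Tie1, Eng, Emcn and Esam. Every probe set that the array annotation gives to 1 of them alone was taken, which made 15 of 45037 probe sets without controls, and all 10 genes of the 18193 that the array names alone. They were measured in mouse testis cells taken at 2 days post partum, enriched for the surface protein THY1 by magnetic sorting as a source of gonocytes, the male germ cells of the newborn testis. The RA group held 2 samples kept for 8 h with 100 nM retinoic acid (RA), and the vehicle group held 2 samples kept for the same time with ethanol. Both groups were cultured with no serum, growth factors or feeder cells, each sample was hybridised to 1 Affymetrix array, and the labels number the samples 1 and 2 in each group without saying what a number stands for. The sources used here give no strain, no pooling of animals and no separate cultures, so the p-values reflect the scatter among these 4 samples, part or all of which may be technical.

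Endothelial cells line the vessels, including those that run between the cords of the newborn testis. The angiopoietin receptor Tek and its partner Tie1, and the vascular endothelial growth factor (VEGF) receptors Kdr and Flt1, are tyrosine kinases that govern the growth and rest of vessels. Pecam1, Cdh5 and Esam hold endothelial cells together at their contacts, Robo4 steadies the vessel wall, Eng binds ligands of the TGF-beta family, and Emcn is a surface mucin of capillaries and veins. Some of these genes are not limited to endothelium: Pecam1 is also made by platelets and leukocytes, and Eng by some macrophages. In RNA from a mixed preparation, fewer cells of a type and less RNA per cell cannot be told apart.

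Signals are the deposited linear intensities, and differences are on the log2(signal + 5) scale, RA minus vehicle or number 2 minus number 1, with the standard error (SE) from limma and n = 2 arrays on each side. A probe set was tested when its mean log2 value reached the 40th percentile of all, which 14 of the 15 did. The 15th, a second probe set of Cdh5, had signals of 3.85 and 6.65 on the RA arrays, against 2.14 and 5.05 on the vehicle arrays, and was not tested. Signals of the brightest probe set of each gene ran from 13.6 for Esam to 155 for Flt1, and each gene is described from that probe set unless another is named. Levels of different probe sets are not comparable with each other. The 4 arrays limit the precision of every value below.

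No endothelial marker passed the test between RA and vehicle. Of the 10, 9 had a difference above 0, where 52.9% of the 13011 genes above the filter did. The members were chosen with earlier results of these data known, so this count was not tested. In limma, 0 of the 14 probe sets had an adjusted p under 0.05, 0 had an unadjusted p under 0.05, and the lowest unadjusted p was 0.116. Over all 27022 probe sets tested, 0% passed after adjustment and 2.75% had an unadjusted p under 0.05. The median difference of the 10 genes was 0.18, against 0.0147 for all genes above the filter. The groups did not overlap in 3 of the 10, where 26.8% of genes had no overlap. In these 3, Tek, Robo4 and Tie1, each RA value exceeded both vehicle values, as in 14.1% of genes, and in 0 of the 10 was it the reverse, as in 12.6% of genes. An exact two-sided permutation test of 1 gene with 2 arrays on each side cannot give a p under 0.333.

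The share above 0 varied with the arrays used, and changed most when RA replicate 2 was left out. Without RA replicate 2, 5 of the 10 differences were above 0 and the median was 0.0318. It was 0.37, with 9 above 0, without RA replicate 1, 0.27 with 7 above 0 without vehicle replicate 1, and 0.27 with 8 above 0 without vehicle replicate 2. RA array 1 set against vehicle array 1 alone was the higher in 8 of the 10, where it was so in 50.7% of all genes.

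The promoters of Tek, Robo4 and Tie1 are shown because these were the 3 genes whose RA values both exceeded the vehicle values. Each run holds 250 bases before and 50 after the gene's start, read 5′ to 3′ on the gene's strand from RefSeq in build GRCm38.p6, and capitals mark GGAA on either strand, the core of sites bound by ETS factors, which are known regulators of endothelial genes. The positions are chr4:94739039-94739338, plus strand, for Tek, chr9:37401722-37402021, plus strand, for Robo4 and chr4:118489800-118490099, minus strand, for Tie1.
Tek: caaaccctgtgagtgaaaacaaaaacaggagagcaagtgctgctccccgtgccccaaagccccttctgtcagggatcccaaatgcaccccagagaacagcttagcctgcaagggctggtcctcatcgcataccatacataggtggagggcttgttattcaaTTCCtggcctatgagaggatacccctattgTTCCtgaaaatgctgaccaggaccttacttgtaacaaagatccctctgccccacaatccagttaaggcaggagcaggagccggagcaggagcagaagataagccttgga
Robo4: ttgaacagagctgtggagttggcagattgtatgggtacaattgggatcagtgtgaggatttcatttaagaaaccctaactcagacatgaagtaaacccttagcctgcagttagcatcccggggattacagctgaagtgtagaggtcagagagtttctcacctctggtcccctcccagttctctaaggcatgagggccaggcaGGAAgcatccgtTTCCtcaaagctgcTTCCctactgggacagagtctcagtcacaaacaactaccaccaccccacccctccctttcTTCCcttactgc
Tie1: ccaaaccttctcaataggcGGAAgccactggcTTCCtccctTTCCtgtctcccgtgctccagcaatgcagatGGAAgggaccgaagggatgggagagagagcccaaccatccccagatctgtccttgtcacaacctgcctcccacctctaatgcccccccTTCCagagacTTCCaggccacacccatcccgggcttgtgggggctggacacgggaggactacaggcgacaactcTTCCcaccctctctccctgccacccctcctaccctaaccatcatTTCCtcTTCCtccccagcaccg

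GGAA occurred 2 times in the promoter of Tek, 4 times in that of Robo4 and 9 times in that of Tie1. Over 32851 mouse promoters of the same length the median was 3, with quartiles of 2 and 5. The table held 7 of the 10 members, all 7 with at least 1 GGAA, as had 95.98% of all promoters. The longer ETS-type word CAGGAAGT, which contains GGAA, was in 0 of the 7 and in 3.33% of all. Direct repeats spaced as in RA response elements were searched on both strands as GGTCA or GTTCA followed by the same or the other word. With 6 bases between them, which leaves a spacer of 5 between the hexamers, they were in 0 of the 7 and in 0.247% of all promoters, and with 3 bases between them, a spacer of 2, in 0 of the 7 and in 0.399% of all. These are matches of letters in a short window and say nothing of binding.

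Tek, the receptor of the angiopoietins, had the largest difference of the 10. Its signals were 71.7 and 58.4 on RA arrays 1 and 2, against 55.5 and 29.1 on vehicle arrays 1 and 2. Both RA values were above both vehicle values, yet the lower RA value was close to the higher vehicle value. The difference was 0.62 ± 0.35 (1.53-fold), with a 95% interval from −0.19 to 1.43 and an adjusted p of 1 in limma. It was 0.34 within number 1 and 0.89 within number 2. Number 2 was the lower array in both groups, and the difference of number 2 from number 1, −0.55 ± 0.31, was nearly as large as that of RA from vehicle. Both rested on vehicle array 2: without it the treatment difference was 0.20 and the number difference −0.10. The treatment difference was 1.03 without vehicle array 1, and the number difference was −0.38 without RA array 1 and −0.997 without RA array 2.

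Tie1, the orphan receptor that pairs with Tek, had signals of 25.4 and 26.7 on the RA arrays, against 19.8 and 20.2 on the vehicle arrays. The 2 samples of each group lay close together and the groups did not overlap. The difference was 0.31 ± 0.29 (1.24-fold, adjusted p = 1 in limma), and it was alike in both numbers, 0.30 in number 1 and 0.33 in number 2. Between the numbers Tie1 differed by 0.041 ± 0.27. These signals are low, which limits how well a ratio can be read.

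Robo4, a guidance receptor of endothelium, was close to Tie1 in pattern. It had signals of 69.3 and 60.1 with RA and of 46.2 and 45.6 with vehicle, so the groups were apart and the vehicle arrays nearly equal. The difference was 0.45 ± 0.27 (1.37-fold, 95% interval −0.18 to 1.08, adjusted p = 1 in limma), 0.53 within number 1 and 0.36 within number 2. Its difference between the numbers was −0.10 ± 0.27.

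**Figure D1:**
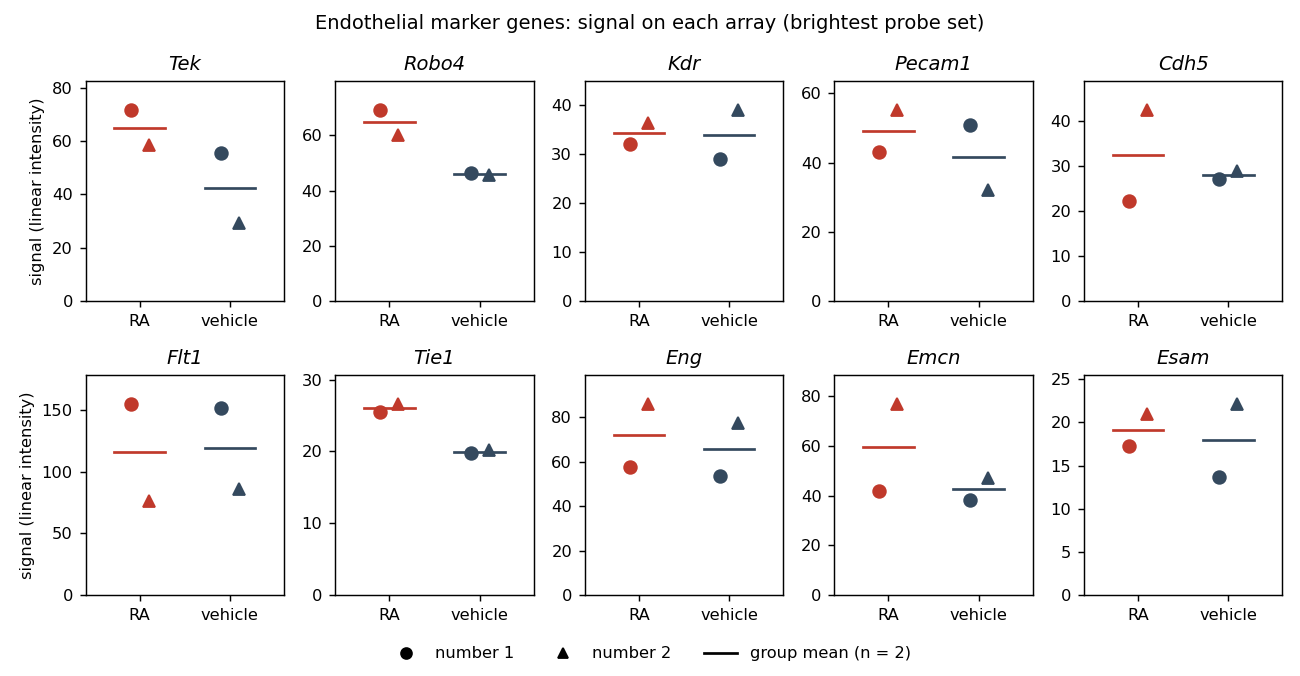
Signal (linear intensity, axes from 0) of the 10 endothelial markers on each array, RA at the left and vehicle at the right of each panel, with circles for number 1, triangles for number 2 and a line at the mean of 2 arrays. Only in Tek, Robo4 and Tie1 do both RA points lie above both vehicle points, while in Flt1 both triangles lie below both circles, near 76.5 and 86.4 against 155 and 152.

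Neither VEGF receptor had groups apart by treatment on its brightest probe set. Kdr, the main signalling receptor for VEGF-A, had signals of 32.1 and 36.4 with RA and of 28.9 and 39.1 with vehicle. Both number 2 arrays were above both number 1 arrays, and the RA values lay inside the range of the vehicle values. The difference of RA from vehicle was 0.0198 ± 0.30, with a 95% interval from −0.68 to 0.72, so changes of up to about that size in either direction cannot be told from none here. Between the numbers Kdr differed by 0.27 ± 0.24.

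Flt1, a VEGF receptor that also exists as a soluble decoy, had the largest difference between the numbers. Its brightest probe set, 1451756_at, gave 155 and 76.5 on RA arrays 1 and 2, against 152 and 86.4 on vehicle arrays 1 and 2. The level followed the number, and the 2 treatments were close to each other within each number. Number 2 minus number 1 was −0.88 ± 0.20 (95% interval −1.33 to −0.42, adjusted p = 0.0832 in limma), a 1.84-fold lower level in number 2, lower in both treatments, and it did not pass. RA minus vehicle was −0.0666 ± 0.39, with a 95% interval from −0.97 to 0.83.

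The other 3 probe sets of Flt1 were dimmer, and 1 of them had the same order of arrays by number. This was 1440926_at, with 12.2 on RA array 2 and 17.5 on vehicle array 2, below 22.1 and 18.9 on RA and vehicle arrays 1, a difference of −0.37 ± 0.27. In the remaining 2 the numbers overlapped, with −0.14 ± 0.32 for 1419300_at and −0.00497 ± 0.27 for 1454037_a_at. For RA minus vehicle, 1419300_at gave −0.49 ± 0.33, with 25.5 and 15.8 on the RA arrays below 27.2 and 34.1 on the vehicle arrays. Probe set 1454037_a_at went the other way, with 24.9 and 28.4 above 22.8 and 19.7 and a difference of 0.27 ± 0.29. So the probe sets of 1 gene disagreed in sign for the treatment, and none passed the test.

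Among the genes of cell contacts, none had groups that were apart by treatment. Pecam1, an adhesion molecule, had signals of 43.1 and 55.3 with RA and of 50.9 and 32.2 with vehicle. It was the only one of the 10 whose arrays were apart neither by treatment nor by number: RA was lower than vehicle in number 1 (−0.22) and higher in number 2 (0.70). Its difference was 0.24 ± 0.32 for the treatment and −0.13 ± 0.29 for the number.

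Cdh5, the cadherin of endothelial junctions, had signals of 22.3 and 42.5 with RA and of 27.2 and 28.9 with vehicle. The RA arrays lay on either side of the vehicle arrays. RA minus vehicle was 0.13 ± 0.35, with −0.24 in number 1 and 0.49 in number 2. Number 2 minus number 1 was 0.44 ± 0.27, with 0.80 in RA and 0.072 in vehicle, and without RA replicate 2 it was 0.19. Esam, another adhesion molecule of these junctions, had 17.3 and 21.0 with RA and 13.6 and 22.2 with vehicle, which gave 0.0959 ± 0.32 for the treatment and 0.38 ± 0.26 for the number. In both genes the number 2 arrays were the higher ones.

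Eng, the co-receptor for TGF-beta and BMP ligands, was higher in number 2 under both treatments. It had signals of 57.8 and 86.2 on RA arrays 1 and 2, against 53.8 and 77.6 on vehicle arrays 1 and 2. The difference between the numbers was 0.51 ± 0.22 (adjusted p = 0.255 in limma), and the treatment difference was 0.12 ± 0.32, positive in both numbers. The second probe set, 1432176_a_at, had the same order, with 25.04 and 57.6 on the RA arrays and 23.7 and 42.3 on the vehicle arrays. There the difference between the numbers was 0.89 ± 0.26 (adjusted p = 0.124 in limma), or 1.85-fold, and that of RA from vehicle 0.23 ± 0.43.

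Emcn, the endothelial mucin, had 41.7 and 76.9 with RA and 38.4 and 47.1 with vehicle. RA array 2 stood above the other 3, which lay close together. Its treatment difference, 0.38 ± 0.35 (1.30-fold), came to 0.11 in number 1 and 0.65 in number 2, and without RA replicate 2 it was −0.0254. Number 2 minus number 1 was 0.54 ± 0.27, with 0.81 in RA and 0.26 in vehicle, and without RA replicate 2 it was 0.21.

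The endothelial markers did not move as a block between the numbers. Number 2 minus number 1 was above 0 in 6 genes and below 0 in 4, from −0.88 for Flt1 to 0.54 for Emcn, with a median of 0.15. The arrays were apart by number in 6 of the 10, where 51.9% of genes were. Both number 2 arrays lay above both number 1 arrays in 5 genes, Kdr, Cdh5, Eng, Emcn and Esam, where 21.4% of all genes did, and below them in 1, Flt1, where 30.5% did. In limma 0 of 14 probe sets had an adjusted p under 0.05, against 0.581% of all probe sets, and 3 (1 of Flt1 and both of Eng) had an unadjusted p under 0.05, against 18.3%. The lowest adjusted p was 0.0832. The median over all genes was −0.0562, and 43.4% of genes were above 0.

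Set side by side, the difference between the numbers was the larger in size in 6 of the 10 genes, Kdr, Cdh5, Flt1, Eng, Emcn and Esam, where it was so in 63.3% of all genes. In the remaining 4, Tek, Robo4, Pecam1 and Tie1, the treatment difference was larger. The median size was 0.18 for the treatment and 0.41 for the number, against 0.15 and 0.24 over all genes. Within number 1, RA was above vehicle in 8 of the 10, where 50.7% of all genes were. Within number 2 it was so in 7 of the 10, where 52.8% of all genes were. It was so in both numbers in 5, Tek, Robo4, Tie1, Eng and Emcn, where 28.4% of all genes were. No test was made on these counts, since the members were chosen with results of these arrays known.

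**Figure D2:**
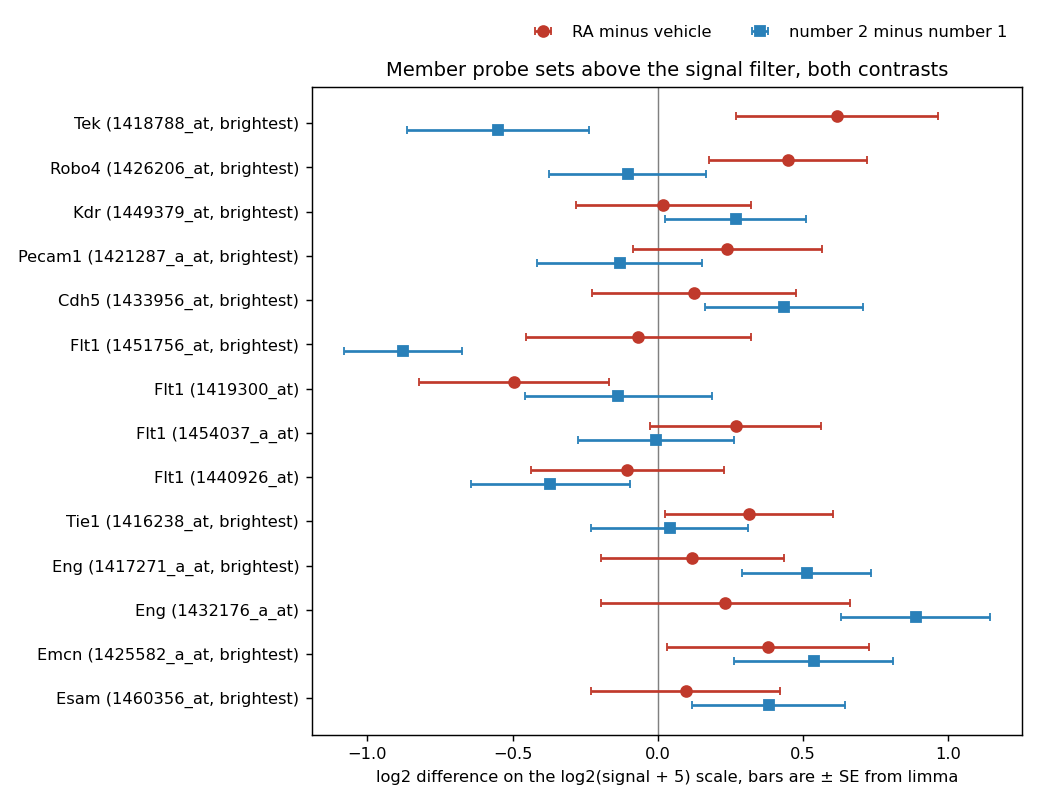
Difference of RA from vehicle (red circles) and of number 2 from number 1 (blue squares) for the 14 member probe sets above the filter, on the log2(signal + 5) scale, with bars of ± SE from limma (n = 2 arrays on each side). Most treatment values sit between 0 and 0.62, while the number values spread from −0.88 (Flt1) to 0.89 (second probe set of Eng).

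**Figure D3:**
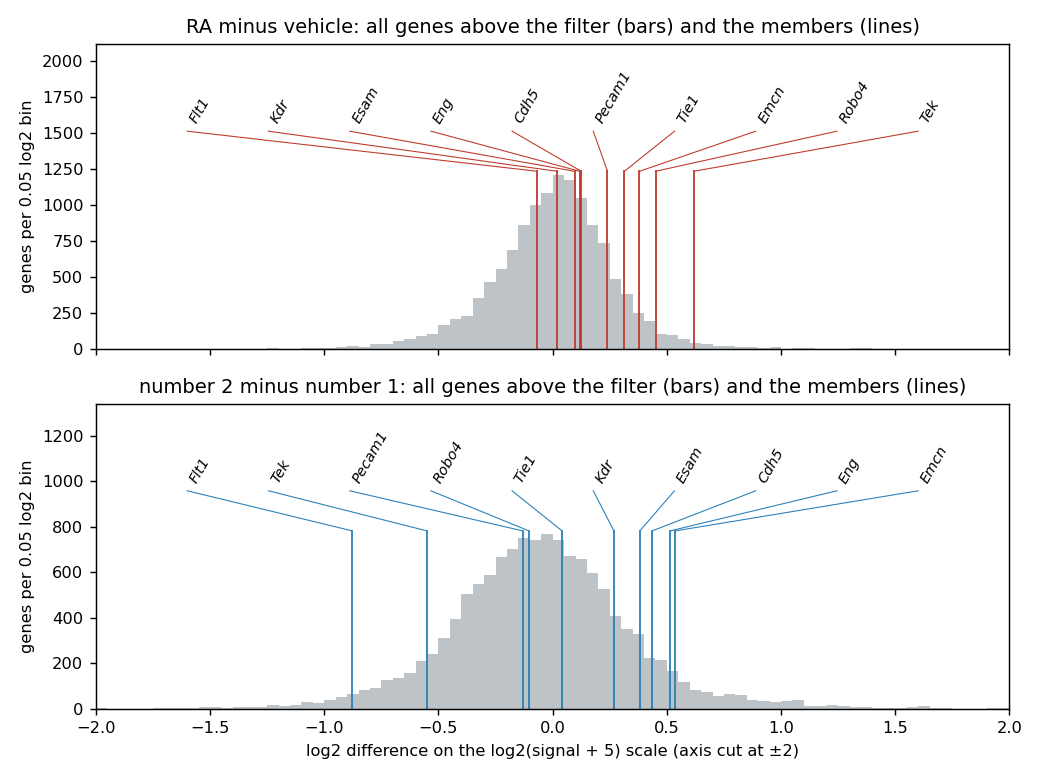
Number of genes per bin of log2 difference for the 13011 genes above the filter (grey bars) with the 10 endothelial markers as lines, for RA minus vehicle above and number 2 minus number 1 below. For the treatment 9 of 10 lines stand above 0, and for the number they lie on both sides.

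Summed over the 10 genes, the signal was 536 and 540.1 on RA arrays 1 and 2, against 486 and 428 on vehicle arrays 1 and 2. The RA arrays had the higher sums, and RA array 2 held the highest value of the 4 in 5 genes, RA array 1 in 3, vehicle array 2 in 2 and vehicle array 1 in 0. Flt1, the brightest, weighs most in such a sum. The ratio of 3′ to 5′ signal of the control transcripts, a sign of RNA quality, was also higher on the RA arrays: for Actb it was 2.08 and 2.32 with RA, against 1.72 and 1.73 with vehicle, and for Gapdh 1.85 and 2.00 with RA, against 1.56 and 1.47 with vehicle. Its part in the marker values was not tested.

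A wider list of 59 endothelial ligands, receptors, transcription factors and other vessel genes had 48 members above the filter, with differences of both signs. Of the 48, 0 passed the test in either direction, 26 were above 0 and 22 below, where 52.9% of all genes were above 0, and the median treatment difference was 0.0556. Each RA value exceeded both vehicle values in 6, Klf4, Egfl7, Nrp2, Plvap, Ptprb and Gja4, where 14.1% of all genes did so. They lay below both in 8, Vegfd, Ecscr, Vcam1, Rasip1, Vegfc, Nrp1, Hhex and Vegfb, where 12.6% of all genes did, so both counts were near the background. By role, the median was 0.0768 for 11 ligands, 0.0548 for 13 receptors, 0.0565 for 13 transcription factors and −0.16 for 11 other genes. Groups were apart in 3 of the 11 ligands, where 26.8% of all genes had no overlap, so this count too was near the background. These 3, Vegfb (−0.30 ± 0.28), Vegfc (−0.44 ± 0.28) and Vegfd (−0.97 ± 0.31), are growth factors of the VEGF family, and were lower with RA. Vegfa and Pgf, of the same family, had differences of 0.50 and 0.53 with groups that overlapped.

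The 2 largest differences of the wider list with RA above vehicle were in Aplnr, the apelin receptor, and Gja4, a gap junction protein of arteries. Aplnr had 128 and 32.4 with RA and 47.3 and 32.4 with vehicle, so that RA array 1 alone was high and the difference was 0.67 ± 0.55. Gja4 had 53.7 and 35.0 with RA and 34.8 and 22.2 with vehicle, groups that barely separated (0.56 ± 0.34). In the other direction stood Vegfd, a growth factor of lymphatic vessels, with 54.0 and 67.2 with RA and 95.4 and 158 with vehicle (−0.97 ± 0.31), and Tgfb1, with 9.78 and 25.3 against 19.9 and 42.0 (−0.69 ± 0.45). Each of these 4 had an adjusted p in limma that rounds to 1.

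Between the numbers, 30 of the 48 were above 0 and 18 below, where 43.4% of all genes were above 0, the median was 0.0813, and 0 passed. Both number 2 arrays lay above both number 1 arrays in 15, against 21.4% of all genes, and below them in 7, against 30.5%. Angpt2, a ligand of Tek, had the largest value above 0, with 108 on RA array 2 and 34.8 on RA array 1, against 63.5 on vehicle array 2 and 38.0 on vehicle array 1 (1.09 ± 0.28, adjusted p = 0.099 in limma). It was chosen after its values were seen. Its receptor Tek ran the other way, lower on number 2 arrays in both groups.

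Among germ cell genes, Ddx4, an RNA helicase, had 1299.8 and 1121 with RA and 1305 and 1289 with vehicle. Dazl, an RNA-binding protein, had 1514 and 1296 with RA and 1606 and 1603 with vehicle. Both were named by no rule from a list of 12 germ cell genes above the filter, which reached down to a signal of 7.96. Of the 12, 11 were below 0 for the treatment, where 52.9% of all genes were above 0. Between the numbers 9 were below 0, where 43.4% of all genes were above 0. Single genes of that list ran from −1.45 to 0.16 for the treatment and from −1.70 to 0.21 for the number. Markers of other testis cells gave signal too. Summed signals of 10 stromal genes ran from 8683 to 11479 with RA and from 8774 to 11786 with vehicle. Of known RA targets, 7 of 7, among them Stra8 and Cyp26a1, lay higher on both RA arrays (median difference 2.60), where 14.1% of all genes did. In limma 0 of the 7 had an adjusted p under 0.05. That list was chosen with these results known, so the count cannot serve as a check of the labels. Thy1, the sorted protein, had 265 and 141 on RA arrays 1 and 2 and 329 and 168 on vehicle arrays 1 and 2, a difference between the numbers of −0.92 ± 0.20 (adjusted p = 0.07 in limma).

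The macrophage and mast cell lists had medians of over 1 log2 unit between the numbers, with single genes from 0.021 to 1.27 and from 0.32 to 1.71. Of 11 macrophage and leukocyte genes above the filter, 11 were above 0, with a median of 1.01 for number 2 minus number 1. In limma 2 passed with number 2 higher, as did 57 of all 13011 genes above the filter. The 13 genes of this list with a probe set summed to 1720.1 and 3599.6 on RA arrays 1 and 2 and to 2134 and 4018 on vehicle arrays 1 and 2. Mast cell genes had a median of 1.14, with 8 of 8 above 0 and 3 passing, and sums between 2609.7 and 7649.97 with RA and between 4118 and 8415 with vehicle. Over the same arrays the sum of the 10 endothelial markers differed by at most 1.26-fold. That sum joins opposite moves, since Flt1 was lower and 5 genes were higher on both number 2 arrays. For the sums of the germ cell, stromal and Leydig cell lists the spread was 1.26-fold, 1.36-fold and 1.82-fold. For the treatment the macrophage and mast cell medians were −0.20 and −0.58, against 0.18 for the endothelial markers. Single macrophage and leukocyte genes ran from −0.58 to 0.10, with 4 above 0 and 7 below. Single mast cell genes ran from −2.26 to 0.63, with 1 above 0 and 7 below. Of all genes, 52.9% were above 0. Mast cells themselves carry Kit, which is on that list and is also a germ cell gene. Whether blood cells, or any other cells of the mixed preparation, had a part in the values of Eng and Pecam1 was not tested.

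The remaining lists were given the same 2 readings. Medians for RA minus vehicle and for number 2 minus number 1 were −0.0214 and 0.37 for 10 stromal genes, −0.26 and 0.54 for 5 Leydig cell genes, 0.0701 and 0.13 for 7 Sertoli cell genes and −0.11 and −0.20 for 12 germ cell genes. They were −0.30 and −1.15 for 3 platelet genes and −0.0622 and −0.19 for 2 erythroid genes, too few to describe a cell type. None of these medians was tested. The endothelial value for the treatment, 0.18, was the highest among the lists of cell types shown here, but 10 pericyte and smooth muscle genes were close at 0.15. It fell to 0.0318 without RA replicate 2, and the wider endothelial list had 0.0556.

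**Figure D4:**
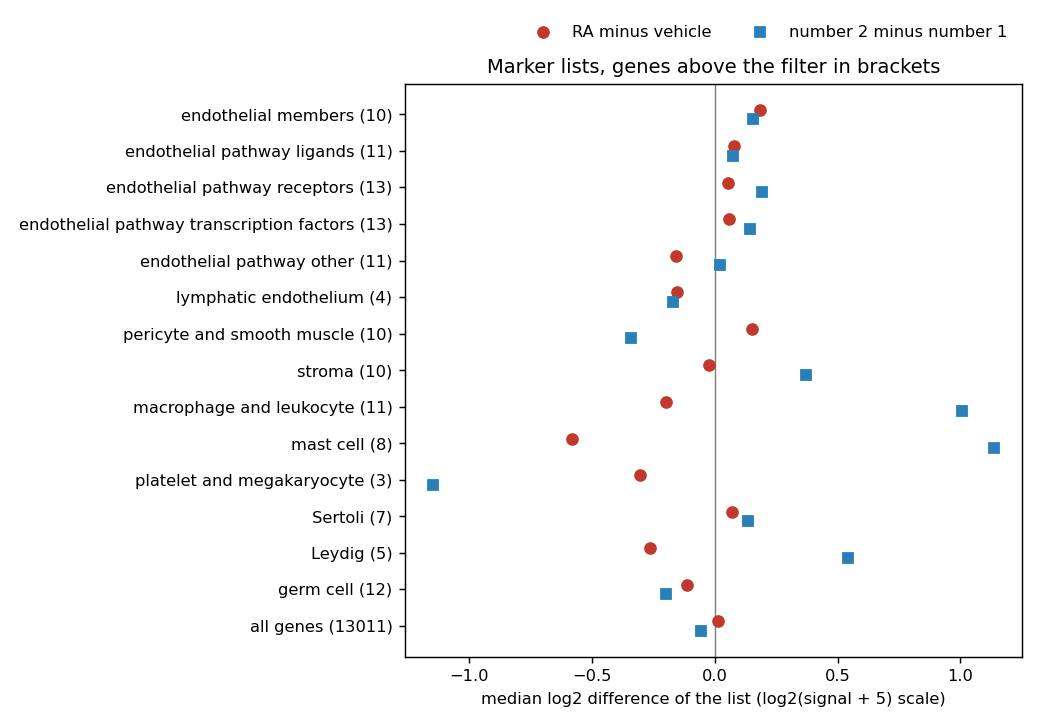
Median log2 difference of each marker list for RA minus vehicle (red circles) and number 2 minus number 1 (blue squares), with the number of genes above the filter in brackets and all genes in the bottom line. The endothelial markers stand at 0.18 and 0.15, while the macrophage and mast cell lists stand at 1.01 and 1.14 for the number.

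Averaged over the 10 markers, the log2 level relative to each gene's mean was 0.0413 and 0.19 on RA arrays 1 and 2, against −0.0927 and −0.14 on vehicle arrays 1 and 2. Among 1528 other genes that varied by at least 1 log2 unit, the 5 whose pattern was most like this average over the 4 arrays were Lrat, Pfkl, Acp5, AA467197 and Crxos, with Pearson r from 0.990 to 0.999. Lrat is also on the list of known RA targets, with an RA-minus-vehicle difference of 2.60. Of the 1528, 36 had an r over 0.95, and with 4 arrays an r rests on few values. These r values describe these arrays alone, and the arrays share both the treatment and the numbering.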

How the data were processed

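The authors deposited 1 linear intensity per probe set from Affymetrix Mouse Genome 430 2.0 arrays. Per the labels' protocols, images were quantified with GCOS 1.2 after amplification of 75 ng of RNA with the NuGEN Ovation system, version 2. The sources used here do not state how probes were summarised or arrays scaled. Trimmed means (2% off each end) were 125 on all 4 arrays and medians 26.6 to 29.5, so no normalization was added.

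After 64 control probe sets were left out, log2(intensity + 5) was taken, which understates changes of dim genes. Both contrasts were fitted separately over the 27022 of 45037 probe sets kept, with limma 3.58.1 in R 4.3.3 (eBayes with trend, 2 residual degrees of freedom, two-sided, Benjamini-Hochberg), code tested on simulated data. Symbols were updated through Entrez IDs to GRCm38.p6 names (34741 of 34945 probe sets with 1 gene), and the brightest probe set stood for a gene. Members and lists were chosen with earlier results of these data known. In the wider list the 2 largest differences in each direction are named by rule, and its other genes were named after their values were seen. Alternatives covered normalization, pseudocount, filter, variance model, probe sets, a replicate block and each array left out. The spacing of the direct repeats was set after the data were seen, in place of planned spacings that were 1 base short. Protein sequences were not used here. Figures used matplotlib 3.10.9 in Python 3.11.15.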

Additional observations from a re-analysis of the deposited data

How the results depend on the processing

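The settings below changed no call of an endothelial marker for RA against vehicle, which stayed at 0 in every one. Differences of the members kept their sign in most settings, with the exceptions given here. With quantile normalization Tie1 was −0.019 between the numbers. With equal array medians Flt1 was 0.0101 for the treatment and Tie1 −0.00989 for the number, and all 10 markers were above 0 for the treatment. No scaling moved the median of all probe sets by over 0.1. With 1 array left out, the treatment differences ran from −0.17 to 0.21 for Kdr, −0.0536 to 0.53 for Pecam1, −0.27 to 0.52 for Cdh5, −0.55 to 0.42 for Flt1, −0.15 to 0.39 for Eng, −0.0254 to 0.79 for Emcn and −0.18 to 0.37 for Esam, and the number differences from −0.37 to 0.16 for Robo4, −0.48 to 0.22 for Pecam1 and −0.12 to 0.21 for Tie1. Tek (0.20 to 1.03), Robo4 (0.36 to 0.54) and Tie1 (0.28 to 0.34) stayed above 0 for the treatment. The members' median ran from 0.0318 to 0.37 for the treatment and from 0.0335 to 0.25 for the number, and 5 to 9 markers were above 0 for the treatment, a count added after the data were seen.

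With the filter at the 60th percentile 4 markers were left (3 above 0 for the treatment), and their median between the numbers was −0.33. The count of all probe sets called between the numbers, 157, was 344 with equal array medians, 0 with no filter, 91 with the stricter filter and 40 without the intensity trend, and the cause was not tested. With 1 array left out it ran from 172 to 1463, and the count for the treatment from 0 to 152: it was 0 when vehicle replicate 2 was left out, 1 for vehicle replicate 1, 90 for RA replicate 1 and 152 for RA replicate 2. The replicate number as a block gave 543 calls for the treatment and 3007 for the number. In that fit Flt1 passed between the numbers (−0.88, adjusted p = 0.00142), against an adjusted p from 0.0526 to 0.43 elsewhere. The deviations of same-numbered arrays had a correlation of 0.44 over probe sets. The labels do not say whether a number marks a shared source, so whether the samples are paired is not known. The main fits had no block, so any difference between the numbers counted as scatter in the treatment contrast.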

Other observations

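Markers of lymphatic vessels and of the cells around vessels were read beside those of blood endothelium. Of 4 lymphatic genes, Prox1, the transcription factor that defines lymphatic endothelium, had 82.7 and 229 on RA arrays 1 and 2 and 113 and 195 on vehicle arrays 1 and 2, a difference between the numbers of 1.09 ± 0.22 (adjusted p = 0.063 in limma). Lyve1, a hyaluronan receptor of these vessels, was at −0.30 ± 0.25 and Pdpn, a surface glycoprotein, at −0.37 ± 0.17 in the same contrast, so the 3 did not share a direction. For RA minus vehicle the list had a median of −0.15.

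Of 10 genes of pericytes and smooth muscle, 8 were lower in number 2 (median −0.34), with Cnn1, a smooth muscle calponin, at −1.34 ± 0.32 (adjusted p = 0.091 in limma). For the treatment the median was 0.15, close to the 0.18 of the endothelial markers, with 7 of 10 above 0. Rgs5, a pericyte marker, had 77.6 and 39.6 with RA and 28.3 and 35.8 with vehicle (0.72 ± 0.37, adjusted p = 1 in limma), and no gene of either list passed in either contrast. Values named here were chosen after they were seen.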
